A study of Mus musculus with 2 samples.

Results

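S100 proteins, annexins and calpains are families of proteins that respond to calcium in the cell. They were taken as all genes of the deposited table whose symbol begins with S100a, Anxa or Capn and a digit, together with S100b and Capns1, the small calpain subunit. This gave 31 of the 14678 genes in the table, 11 S100 genes, 11 annexins and 9 calpain genes. The study profiled uteri of mice with a doxycycline-controlled VEGF gene, of the genotype VEGFtetO/tetO/beta-AKtg/wt, at gestation day 2.5, before implantation, by digital gene expression (DGE), in which short sequence tags are counted for each gene. Dox+ mice received chow with 200 mg/kg doxycycline and expressed VEGF, and Dox− mice received regular chow, on which the tetR-Krab repressor blocks the VEGF promoter. The line was bred on doxycycline chow, and Dox− mice were taken off it weeks before the uteri were collected. Mice of both groups were littermates of 9 to 10 weeks and carried the tet operator in both VEGF alleles and the repressor transgene under a beta-actin promoter, which acts in all cells. For each group, 6 µg of total RNA from 3 uteri was pooled into 1 library. With 1 library per group no difference has a replicate check, and the presence of doxycycline itself and the level of VEGF cannot be told apart.

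S100 proteins are small EF-hand proteins that bind a target when calcium rises, and several of them bind the N-terminal tail of an annexin. Annexins bind acidic phospholipids in the presence of calcium and take part in membrane organisation, secretion and repair. Calpains are calcium-dependent cysteine proteases, of which the classical forms pair a catalytic subunit (Capn1 or Capn2) with the small subunit Capns1 and are held in check by calpastatin (Cast). Members of these families are found in epithelium, mesenchymal cells, muscle and leukocytes. Most S100 genes lie side by side in the epidermal differentiation complex, on chromosome 3 of the mouse.

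The libraries held 5985925 clean tags (Dox+) and 5844314 clean tags (Dox−), and the table assigns 74.1% and 72.2% of them to genes. Vegfa, the repressed gene, had 247 copies in Dox+ and 125 in Dox−, a log2 ratio of Dox− over Dox+ of -0.95 (95% interval -1.27 to -0.63). A copy is 1 tag. Each interval comes from the exact binomial share of the Dox− copies among all copies of the gene, scaled by the clean tags, and covers counting error only. A gene was compared where both libraries together held at least 200 copies, and it was called higher or lower where the fold change was at least 1.5. Of the uterine markers, Hoxa10, Hoxa11 and Msx1 had 3120, 2573 and 1757 copies in Dox+, and Pgr, the progesterone receptor, had 687. Defining genes of the labelled tissue were thus present.

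The start regions of S100a6, Anxa1, S100a8 and S100a9 are shown with the 250 bases before the start in RefSeq on GRCm38.p6. RefSeq windows were found for 25 of the 31 members, 30 windows in all since some have more than 1 start. Capitals mark matches to any of 6 motifs searched on both strands. The box of core promoters was searched as TATAAA, and the GC box bound by Sp factors as GGGCGG. The AP-1 site of Fos and Jun was searched as TGANTCA, and a form of the hypoxia response core as GACGTG. The last searches were for CCAAT, bound by NF-Y, and for the palindromic estrogen response element. S100a6 and Anxa1 had the largest decreases among the abundant members, and S100a8 and S100a9 the largest increases among the members with few copies.
S100a6, chr3:90612644-90612893, plus strand: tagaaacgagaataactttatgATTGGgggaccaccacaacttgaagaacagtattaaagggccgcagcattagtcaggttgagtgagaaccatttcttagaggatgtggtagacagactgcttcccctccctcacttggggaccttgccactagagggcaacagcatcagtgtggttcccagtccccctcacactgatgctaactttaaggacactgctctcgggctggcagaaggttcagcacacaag
Anxa1, chr19:20390672-20390921, minus strand: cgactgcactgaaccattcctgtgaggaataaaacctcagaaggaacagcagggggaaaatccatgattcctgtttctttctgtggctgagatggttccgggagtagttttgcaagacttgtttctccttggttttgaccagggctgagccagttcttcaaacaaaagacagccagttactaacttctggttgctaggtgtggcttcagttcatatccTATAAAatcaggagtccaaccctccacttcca
S100a8, chr3:90668821-90669070, plus strand: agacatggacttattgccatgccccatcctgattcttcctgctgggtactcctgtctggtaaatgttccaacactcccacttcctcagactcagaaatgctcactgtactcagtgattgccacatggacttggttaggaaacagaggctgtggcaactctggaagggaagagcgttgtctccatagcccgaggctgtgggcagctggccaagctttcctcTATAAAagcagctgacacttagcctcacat
S100a9, chr3:90695722-90695971, minus strand: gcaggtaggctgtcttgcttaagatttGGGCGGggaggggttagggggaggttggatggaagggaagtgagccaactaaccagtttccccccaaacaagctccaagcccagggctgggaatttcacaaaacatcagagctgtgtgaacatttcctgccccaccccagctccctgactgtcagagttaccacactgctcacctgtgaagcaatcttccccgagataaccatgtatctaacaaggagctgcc

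TATAAA stood 32 bases before the start of Anxa1 and 30 bases before that of S100a8, and 4 of the members' 30 windows held it, against 12.4% of the 32851 windows of this length in RefSeq. S100a4 and Anxa2 also held it, at 31 and 17 bases. In S100a6 the only match was to CCAAT, and in S100a9 a GC box. Of the 30 windows, CCAAT was found in 9 (33.8% of all windows), the GC box in 11 (32.7% of all windows), the AP-1 site in 5 (6.75% of all windows) and the hypoxia core in 2 (5.20% of all windows). The estrogen response element was found in 0 of them and in 0.0639% of all windows. These are matches of letters and not sites shown to be used.

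Of the 31 members, 18 had at least 200 combined copies. Among them 5 were lower in Dox−, S100a6, S100a1, S100a10, Anxa1 and Anxa11, and 1 was higher, Anxa7. Over all 6547 genes compared, 14.7% were lower and 15.2% were higher at the same fold change. The members had 27.8% lower and 5.56% higher, which is 5 and 1 of 18 genes. With so few genes the difference from all genes was not tested. At a fold change of 2, 3 members were lower (5.62% of all genes compared) and 0 were higher (4.61% of all genes compared). The whole interval lay beyond 1.5-fold for the 5 lower genes and not for Anxa7. The other 12 members were within 1.5-fold. The median log2 ratio was -0.83 over the 5 S100 genes, -0.12 over the 8 annexins and 0.25 over the 5 calpain genes, beside 0.035 over all genes compared. The S100 median depended on the filter, and was -0.063 from 100 combined copies and 0.19 from 20, where S100 genes with few copies entered.

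**Figure D1:**
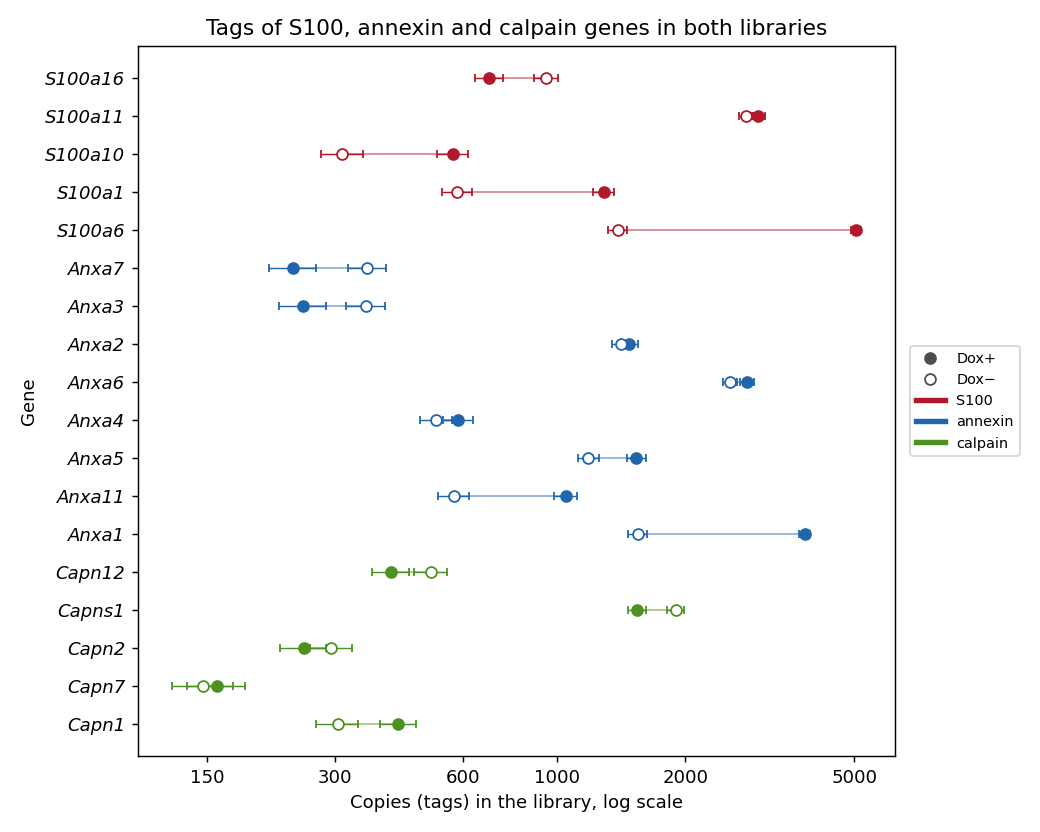
Copies of the 18 members with at least 200 combined copies in the Dox+ library (filled points) and the Dox− library (open points), on a log axis, coloured by family. Bars are exact 95% Poisson intervals of each count and cover counting error only. The widest gaps are those of S100a6 (5040 and 1386 copies) and Anxa1 (3819 and 1546 copies).

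Among the S100 genes, S100a6 (calcyclin), a protein of proliferating cells and stroma that binds annexin A11 and the calcyclin-binding protein, went from 5040 copies in Dox+ to 1386 in Dox−. It was 3.55-fold lower (95% interval 3.34 to 3.77), the largest decrease of all 18 members. S100a6 lies on chromosome 3 at 90416816 to 90418336 of NCBIM37 (mm9). S100a1, known from striated muscle, where it binds the ryanodine receptor, had 1285 copies in Dox+ and 582 in Dox−, and was 2.16-fold lower (1.95 to 2.38). S100a10 (p11), the partner of annexin A2 that has lost calcium binding, had 567 and 312 copies, and was 1.77-fold lower (1.54 to 2.04). The Dox− counts of these 3 genes were all below the Dox+ counts by far more than the counting error.

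S100a11, a partner of annexin A1, had 2974 copies in Dox+ and 2779 in Dox−, a log2 ratio of -0.063 (-0.14 to 0.012). Its counting interval held no difference. Of the 21-base stretches of S100a11 transcripts, 40.9% also occur in transcripts of the copies Gm7665 and Gm5068, and tags shared with them could be left out as ambiguous, so its level is uncertain. S100a16, a widely expressed S100 protein, had 691 and 942 copies, a log2 ratio of 0.48 (0.34 to 0.63), which is short of 1.5-fold. All S100 genes together went from 10674 to 6277 tags, and without S100a6 from 5634 to 4891. As a share of tags, with no correction for length, S100a6 made up 47.2% of the S100 tags in Dox+ and 22.1% in Dox−. Without S100a6, S100a1 and S100a10 the remaining S100 genes had 3782 and 3997 tags, so that the lower sum rested on these 3 genes.

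S100a8 and S100a9 encode the subunits of calprotectin, an inflammatory heterodimer of neutrophils and of some epithelia. S100a8 had 24 copies in Dox+ and 98 in Dox−, 4.18-fold more (2.65 to 6.84). For S100a9 the counts were 9 and 71, or 8.08-fold more (4.03 to 18.4). Both genes were thus under 200 combined copies, and S100a8, like Capn5 below the same limit, was singled out after its values were seen. Among the 5532 genes with 20 to 199 combined copies, 3.04% were at least 4-fold higher in Dox− and 12.4% at least 2-fold higher. The ratio of S100a9 to S100a8 tags was 0.375 in Dox+ and 0.724 in Dox−, and the interval of its change (0.804 to 5.01) held 1.

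Of 12 listed neutrophil markers, 6 are in the table and none of them had 200 combined copies. Their summed level was 20.7 TPM (the count divided by the library's clean tags, with no length term) in Dox+ and 31.7 TPM in Dox−. Mpo, the myeloperoxidase of neutrophil granules, had 9 and 47 copies, and Csf3r had 2 and 9. Mmp8 had 81 and 83 copies, Mmp9 27 and 42, Il1r2 2 and 4, and Cxcr2 3 copies in Dox+ and 0 in Dox−. Ly6g, Elane, Camp, Ngp, Retnlg and Cd177 were not analysed here. The 9 macrophage markers in the table summed to 330 and 366 TPM, and of the 7 with enough copies 2 were higher and 0 lower. The 2 higher genes were C1qc with 92 and 142 copies and Mrc1 with 163 and 241. C1qb, with 755 and 804 copies, and C1qa, with 396 and 336, were within 1.5-fold. The part of these cells in the calprotectin counts was not tested, and in whole uteri a change in the number of cells of a type and a change in RNA per cell cannot be told apart.

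S100a4, a protein of motile mesenchymal cells, had 77 copies in Dox+ and 102 in Dox−, a log2 ratio of 0.44 whose interval held no difference (-0.00088 to 0.89). The remaining S100 genes had 8 combined copies or fewer. S100a14 had 3 and 5, S100a5 had 2 copies in Dox+ and 0 in Dox−, and S100b, a marker of glia and Schwann cells, likewise had 2 and 0. At a count of 0 as many as 3 copies are possible, which is 0.501 TPM for Dox+ and 0.513 for Dox−, so that no fold change was taken for S100a5 and S100b.

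Of the S100 genes, 10 of 11 lie on chromosome 3 between 90314956 and 93368565 of NCBIM37, and S100b is on chromosome 10. Neighbours in this cluster went different ways. From S100a4 to S100a9, 5 genes span 90407692 to 90499643. S100a6 starts 1113 bases after the end of S100a5, which had 2 copies in all, and it ends 54656 bases before S100a8. S100a6 was 3.55-fold lower and S100a8 4.18-fold higher, and no other S100 gene of the table lies between them. S100a11 and S100a10 lie 28792 bases apart, and their log2 ratios were -0.063 and -0.83. The neighbours S100a8 and S100a9, both under 200 combined copies, lie between the lower genes S100a6 and S100a10. No S100 gene with at least 200 combined copies was called higher.

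**Figure D2:**
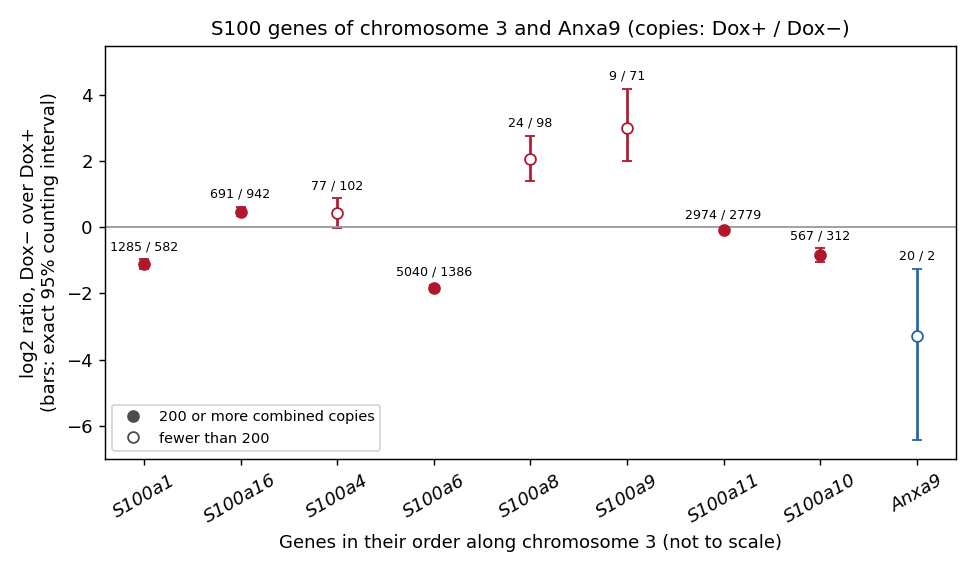
Log2 ratio of Dox− over Dox+ (vertical axis) of the S100 genes on chromosome 3 and of Anxa9, in their order along the chromosome, for genes with at least 20 combined copies. Bars are exact 95% counting intervals, open points mark genes under 200 combined copies, and the numbers above are the copies in Dox+ and Dox−. S100a6, at -1.83, stands next to S100a8 at 2.06 and S100a9 at 3.01.

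Among the annexins, Anxa1, the glucocorticoid-induced inhibitor of phospholipase A2 that acts on formyl peptide receptors, went from 3819 copies in Dox+ to 1546 in Dox−. It was 2.41-fold lower (2.27 to 2.56) and lies on chromosome 19 at 20447918 to 20465434 of NCBIM37. Anxa11, the partner of S100A6 that also ties RNA granules to lysosomes, had 1047 and 571 copies and was 1.79-fold lower (1.62 to 1.99). Anxa7 (synexin), which fuses membranes in secretion, had 239 and 357 copies and was 1.53-fold higher (1.30 to 1.81). With library sizes by median ratios Anxa7 had a log2 ratio of 0.58 and was no longer called, so that it stood at the threshold.

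The other 5 abundant annexins were within 1.5-fold. Anxa2, a plasmin receptor and actin-binding annexin, had 1474 copies in Dox+ and 1416 in Dox−, a log2 ratio of -0.023 (-0.13 to 0.083). Anxa6, the annexin with a duplicated core, had 2798 and 2549 copies, and Anxa4, an annexin of secretory epithelia, had 584 and 519, with log2 ratios of -0.10 and -0.14. The interval held no difference for Anxa2 and Anxa4 and did not for Anxa6 (-0.18 to -0.022). Anxa5, which binds exposed phosphatidylserine, had 1534 and 1183 copies, a log2 ratio of -0.34 (-0.45 to -0.23). Anxa3 had 252 and 354 copies, a log2 ratio of 0.52 (0.29 to 0.76). The annexins together went from 11770 to 8499 tags, and without Anxa1 and Anxa11 from 6904 to 6382.

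The other 3 annexins had few copies. Anxa9, an annexin that does not bind calcium, had 20 copies in Dox+ and 2 in Dox−, 9.76-fold fewer with a wide interval (2.37 to 86.2). Of the genes with 20 to 199 combined copies, 3.71% were at least 4-fold lower. It shares 71 exon bases with Fam63a on the other strand, which had 278 and 191 copies. Anxa13, an annexin of intestinal and renal epithelium, had 3 copies in Dox+ and 0 in Dox−, and Anxa8, of stratified epithelium, 0 and 2. No fold change was taken for the latter pair of genes.

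In the calpain group 0 of 5 compared genes were called in either direction, where 15.2% of all genes compared were higher and 14.7% lower, so that with 5 genes the count does not stand apart. Capns1, the small subunit shared by the classical calpains, had 1542 copies in Dox+ and 1899 in Dox−, a log2 ratio of 0.33 (0.24 to 0.43). Capn1 (µ-calpain) had 422 and 304 copies, a log2 ratio of -0.44 (-0.66 to -0.22), and Capn2 (m-calpain) 253 and 294, a log2 ratio of 0.25 (0.0038 to 0.50). The classical catalytic subunits thus went in opposite directions by less than 1.5-fold. Capn7, which lacks the classical calcium-binding domain and acts with ESCRT proteins, had 158 and 147 copies, and its interval held no difference (-0.40 to 0.26).

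Capn12, known from skin and hair follicles, had 406 copies in Dox+ and 504 in Dox−, a log2 ratio of 0.35 (0.16 to 0.54). Of its 2828 exon bases, 338 overlap exons of Actn4 on the other strand, and Actn4, the broadly expressed actinin, had 2133 and 2441 copies. Whether the counts of the table hold tags of 1 strand alone is not given in the sources used here, so the Capn12 counts are uncertain. The same limit holds for Capn1, which shares 347 exon bases with Gm10814 on the other strand, and for Capn7, which shares 116 with Sh3bp5 (15 and 47 copies). Anxa2 shares 98 exon bases with Gm16144 and Capn2 20 with Gm16721 in the same way. Capn5, without EF-hands, had 47 and 99 copies, 2.16-fold more (1.51 to 3.12), and Capn6, an inactive calpain that binds microtubules, 89 and 60, a log2 ratio of -0.53 (-1.03 to -0.046). Capn10 had 2 and 6 copies, and Capn9, of the gastrointestinal tract, 0 and 2. The calpain genes together had 2919 and 3315 tags, and without Capns1 1377 and 1416, the latter a log2 ratio of 0.075 (-0.033 to 0.18).

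**Figure D3:**
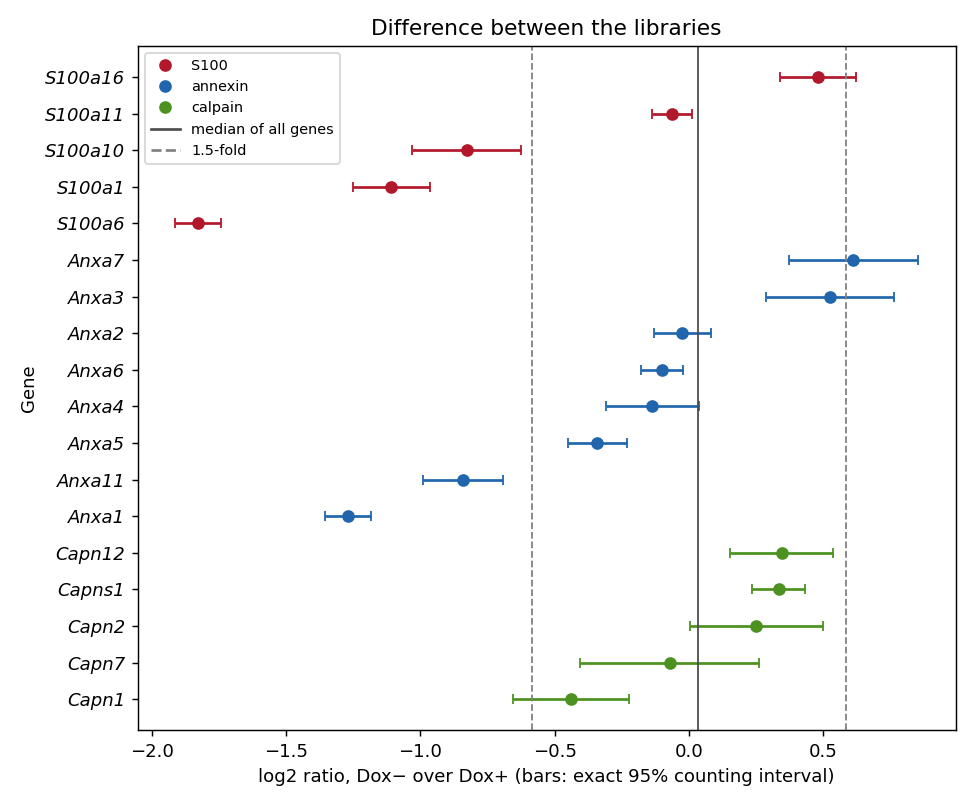
Log2 ratio of Dox− over Dox+ (horizontal axis) of the 18 members with at least 200 combined copies, grouped by family, with exact 95% counting intervals. The solid line marks the median of all genes compared (0.035) and the dashed lines 1.5-fold. S100a6, S100a1, S100a10, Anxa1 and Anxa11 lie with their whole interval left of the lower dashed line, and the points of the calpain genes lie between the lines.

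Of the 6 members with 20 to 199 combined copies, S100a8, S100a9, Capn5 and Anxa9 differed by at least 2-fold, 3 higher and 1 lower, while S100a4 and Capn6 did not. In that range 12.4% of all genes were at least 2-fold higher and 13.0% at least 2-fold lower. The other 7 members held 8 combined copies or fewer.

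The order of the members by level was taken as TPM per kilobase of the longest annotated transcript. On that scale S100a6 stood first among the 18 members in Dox+ with 1171 TPM per kilobase, and S100a11 followed with 972. In Dox− S100a11 was first with 931 and S100a6 second with 330. Anxa1 was the third in Dox+ with 381 and the sixth in Dox− with 158, where Capns1, with 210, took the third place. At the lower end Capn7 had 5.66 and 5.40, below every other member compared. DGE counts need not grow with transcript length, so that this order holds for the length-corrected scale alone. By copies S100a6 was also first in Dox+, but in Dox− it stood below S100a11, Anxa6, Capns1, Anxa1 and Anxa2. The place of S100a11 is uncertain, since its transcripts share stretches with Gm7665 and Gm5068.

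Pairs of proteins known to bind each other were then followed by the ratio of their tags within a library, whose change between libraries does not depend on library size. The ratio of S100a10 to its partner Anxa2 went from 0.385 in Dox+ to 0.220 in Dox−, a change of 0.573 times (0.488 to 0.671), with Anxa2 nearly level. For S100a11 and Anxa1 it was the annexin that was lower, and the ratio went from 0.779 to 1.80, a change of 2.31 times (2.13 to 2.50). In the third pair both genes were lower, but S100a6 more so than Anxa11, and the ratio went from 4.81 to 2.43, a change of 0.504 times (0.447 to 0.569). Cacybp, the calcyclin-binding protein of the ubiquitin pathway, had 526 and 695 copies, and the ratio of S100a6 to it changed 0.208 times (0.183 to 0.237). Each of these 4 changes was larger than the counting error. The ratios come from the same copies as the single genes above and restate their differences.

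In the calpain pairs, the ratio of Capn1 to Capns1 changed 0.585 times (0.496 to 0.690). Those of Capn2 to Capns1 (0.784 to 1.14) and of the inhibitor Cast to Capns1 (0.729 to 1.22) had intervals that held 1. Pdcd6 (ALG-2), a penta-EF-hand protein that binds annexins A7 and A11, had a ratio to Anxa7 of 1.65 in Dox+ and 1.62 in Dox− (interval of the change 0.793 to 1.22), and its ratio to Anxa11 changed 2.69 times (2.28 to 3.18). Sri (sorcin), which also binds annexin A7, had 497 and 478 copies, and its ratio to Anxa7 changed 0.644 times (0.521 to 0.796).

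**Figure D4:**
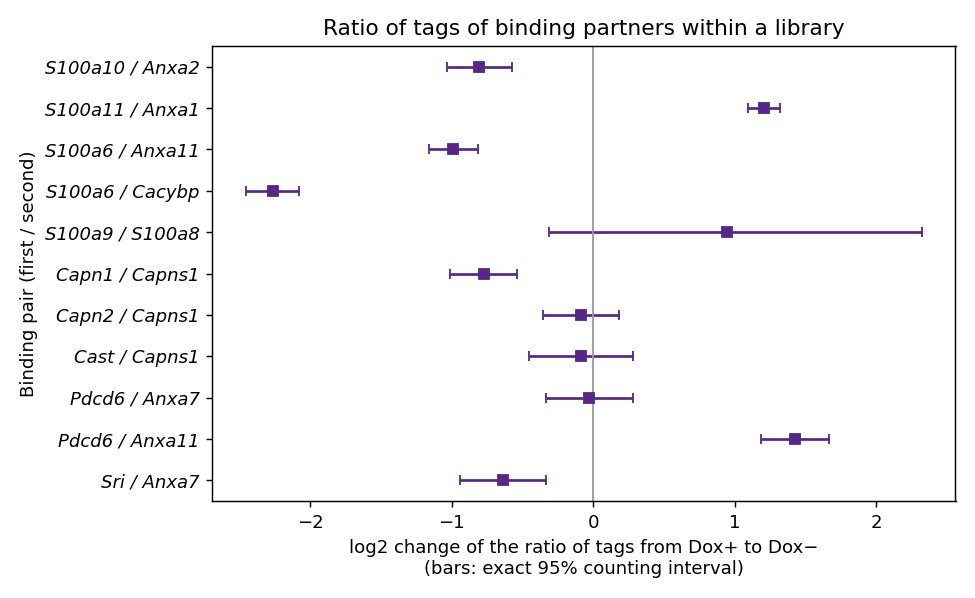
Log2 change from Dox+ to Dox− of the ratio of tags of 11 binding pairs within a library, with exact 95% counting intervals. The ratio of S100a6 to Cacybp is farthest below 0 (-2.26) and that of Pdcd6 to Anxa11 farthest above it (1.43). For S100a9 to S100a8, Capn2 to Capns1, Cast to Capns1 and Pdcd6 to Anxa7 the interval holds 0.

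Further genes were listed, 52 in all and 28 in the table. Of the 52, 21 are epidermal differentiation genes, listed as neighbours on chromosome 3 and not as binding partners. The lists included 15 genes with at least 200 combined copies, of which 2 were higher in Dox−, 3 lower and 10 neither. The 2 higher genes were Pdcd6 and the epidermal differentiation gene Sprr2f. Over all genes compared 15.2% were higher and 14.7% lower, and with 15 genes these counts do not set the listed genes apart. In the list of calpastatin and penta-EF-hand genes, Pdcd6 had 394 and 578 copies and a log2 ratio of 0.59 (0.40 to 0.78), at the threshold. Pef1, the penta-EF-hand partner of Pdcd6, had 239 and 147 copies and was 1.59-fold lower (1.29 to 1.96). Cast had 125 and 145 copies, a log2 ratio of 0.25 (-0.11 to 0.61). Among the S100 receptors and binding partners 0 of 4 were called. Ahnak, a scaffold bound by the S100A10 and annexin A2 complex, had 1639 and 1636 copies, and Bsg (basigin), a receptor of S100A9, had 736 and 965. Tlr4 and Ager, the main receptors of secreted S100 proteins, had 25 and 62 copies and 19 and 23 copies.

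Among the partners of annexins, Pla2g4a, the cytosolic phospholipase A2 that releases arachidonic acid for prostaglandins, had 393 copies in Dox+ and 196 in Dox−, 1.96-fold lower (1.65 to 2.34). Dysf (dysferlin), which acts with annexins A1 and A2 in membrane repair, had 193 and 91 copies and was 2.07-fold lower (1.61 to 2.69). The other 4 with enough copies were within 1.5-fold, among them Plat, the tissue plasminogen activator bound by annexin A2, with 1300 and 1208 copies, and Chmp4b with 592 and 657. Fpr1 and Fpr2, formyl peptide receptors of Anxa1, had 0 and 2 copies and 3 and 4 copies. Of 21 listed epidermal differentiation genes, which share the S100 region of chromosome 3, 4 are in the table, and of a list of further S100 family genes 0 of 2, which were not analysed here. Sprr2f, a small proline-rich protein induced by estrogen in the uterine epithelium, had 904 and 2936 copies and was 3.33-fold higher (3.09 to 3.59). Sprr2 genes are near-identical copies of each other, so its count is uncertain. Sprr1a had 8 and 53 copies, Sprr2g 86 and 51, and Tchh 12 and 5.

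Marker genes of the main uterine compartments were described beside the members. Of 7 smooth muscle markers with enough copies 0 were higher and 3 lower, with a median log2 ratio of -0.57, and their summed level went from 6506 to 4489 TPM. The 3 lower genes were Cnn1 with 4866 and 2851 copies, Des with 4647 and 2578, and Smtn with 1698 and 877. Tagln, with 11417 and 8854 copies, and Actg2, with 7436 and 5086, had the most copies and were within 1.5-fold. Among the striated muscle markers both genes with enough copies were lower, Acta1 with 3385 and 1241 copies and Tnni2 with 408 and 99, and the sum of the 7 genes in the table went from 656 to 235 TPM. S100a1 and Dysf, both known from muscle, were lower in the same library, and the part of muscle tissue in their counts was not tested. The 10 stromal markers had 1 gene higher and 4 lower, with a median of -0.42, while their sum went from 9037 to 10107 TPM. The sum was higher through Col1a1, with 23017 and 33696 copies, as Col3a1 had 18514 and 17098. The lower genes were Hand2 with 985 and 143 copies, Hoxa10 with 3120 and 1060, Hoxa11 with 2573 and 785, and Vim with 2612 and 1680, and the higher gene was Lum with 1549 and 2779. Of the 12 epithelial markers 5 were higher and 2 lower, with a median of 0.48 and sums of 1338 and 1964 TPM, with Krt19 at 1554 and 2046 copies and Cldn7 at 877 and 2263. The 2 lower genes were also claudins, Cldn3 with 1482 and 494 copies and Cldn4 with 149 and 65. The part of these compartments in the S100 and annexin counts was not tested.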

How the data were processed

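Total RNA of pooled uteri was profiled in 1 Dox+ and 1 Dox− library. Before deposition, reads of poor quality, bare adaptors and singleton tags were discarded by the authors, the clean tags left were matched to a set of mouse mRNAs of mm9, and for each gene the authors deposited the counts of tags. CASAVA is named in the submitters' processing notes. The enzyme and the aligner are not given in the sources used here, and the labels mention mRNA fragmentation. The deposited TPM is the count divided by the library's clean tags, with no length term (0.01 at a count of 0). This held within rounding for 27998 of 27998 values above 0 tags, from which the clean tags were recovered. The deposited columns of the authors' own comparison, a log2 ratio, a P-value with its FDR and a TPM ratio with its inverse, were not used.

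Counts of 3 or fewer were set to 3 for log2 ratios, and the ratio for Anxa9 was taken from the counts as they stand. With 1 library per group no test between conditions was made, and no P-value is given. Intervals are Clopper-Pearson intervals, or conditional exact intervals of the odds ratio for pairs, at 95%. All members with at least 200 combined copies are named, with the members of 20 to 199 copies and the rest once. Of the partner lists, called genes and those with the most copies are named, and others were added after their values were seen. The members, lists and pairs were chosen with earlier results of these data known. Positions and transcript lengths come from the GENCODE annotation of NCBIM37, to which 31 of 31 members matched. Scripts were tested on simulated data. TMM factors were computed with edgeR 4.0.16 in R 4.3.3, and all other steps in Python 3.11.15 (numpy 2.4.6, pandas 2.3.3, scipy 1.17.1, matplotlib 3.10.9).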

Additional observations from a re-analysis of the deposited data

How the results depend on the processing

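Library sizes by the sum of the counts, TMM factors or median ratios, and a pseudocount of 1, left each of 148 values of 37 single genes within its counting interval, and the 5 lower members stayed past 1.5-fold in all of them. Anxa7 was no longer called with median-ratio library sizes (0.58), which left 0 members higher. Pdcd6 was not called with TMM (0.56) or median ratios (0.55), which left Sprr2f as the only higher gene of the partner lists in each. The shifts of all genes by these scalings were 0.038, -0.024 and -0.035 on the log2 scale. Lower filters admit more genes. With at least 100 combined copies 3 of 22 members were higher and 5 lower. With at least 20 there were 4 and 6 of 24, and above 3 copies 6 and 6 of 26. The shares of all genes at these lower filters were not computed. The counts there are therefore not read as a result about the members. Of all genes with 20 to 199 combined copies 25.1% were higher and 23.4% lower at 1.5-fold. The S100 median moved from -0.83 to -0.063 at 100 copies and turned to 0.19 at 20 and 0.44 above 3, as S100a4, S100a8, S100a9 and S100a14 entered. At a fold change of 2, 0 members were higher and 3 lower. At an absolute log2 ratio above 0.5, 2 of 18 members were higher and 5 lower, and with the whole interval beyond 1.5-fold 0 and 5. No shares of all genes were computed for these settings. Of the genes of the partner lists, 4 were higher from 20 combined copies (of 23 genes) and above 3 (of 27), and 7 lower above 3. At a fold change of 2, of 15 genes 1 was higher, Sprr2f, and 1 lower. With the whole interval beyond 1.5-fold Sprr2f alone was higher. The macrophage median became 0.29 at 100 copies, 0.29 at 20 and 0.45 above 3, and the Schwann cell median turned to 0.90 at 20 and 0.26 above 3. Other medians of members and marker lists stayed within the counting interval of their middle genes. Leaving out a replicate was not possible with 1 library per group. No paired analysis was possible because each group has 1 library.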

Other observations

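Most endothelial markers with enough copies were lower in Dox−. Of 9 endothelial markers in the table, 6 had enough copies, 4 of them were lower and 0 higher, and the median log2 ratio was -0.78, with summed levels of 279 and 185 TPM. Cdh5 (VE-cadherin) had 446 copies in Dox+ and 216 in Dox−, and Egfl7 had 255 and 140, while Pecam1 had 243 and 253. The 3 adipocyte markers with enough copies included 1 lower, Adipoq with 157 and 78 copies, with a median of -0.42 and sums of 263 and 205 TPM over 5 genes, and Cfd and Fabp4 had 1081 and 875 and 224 and 163 copies. Of the Schwann cell list 1 gene, Pmp22 with 704 and 319 copies, had enough copies, so that its median, -1.11, is that of Pmp22, while Cnp, with 29 and 67 copies, and Mbp, with 28 and 51, went the other way with intervals above 0 (log2 ratios 1.24 and 0.90). Of the 6 uterine markers 3 were higher and 3 lower. Wnt7a, of the luminal epithelium, had 48 and 273 copies, and Pgr 687 and 1251, whereas Hoxa11 had 2573 and 785.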
